A study of Rattus norvegicus with 34 samples.

Results

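Whole lung and the bronchial gland, a gland of the airway wall, were compared by their miRNA profiles on TaqMan card A, as 1 library each. The salivary gland and the lacrimal gland were set beside them, so that 4 of the 34 rat libraries of the series were used. They were chosen by their labelled tissue, and the other 13 libraries of card A give the range. All came from Sprague-Dawley rats at 4 weeks of age, without treatment. The methods name both male and female animals but give no number per tissue. Lung, salivary gland, and lacrimal gland were whole tissues extracted with TRIzol and were not preamplified. The bronchial gland was cut from sections by laser microdissection, extracted with the mirVana PARIS kit, and preamplified for 12 cycles. The methods list the trachea, not the lung, among the organs taken for sectioning.

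MicroRNAs are small noncoding RNAs that repress messenger RNAs, and many of them mark a cell type. The lung holds alveolar and airway epithelium together with dense capillaries, smooth muscle, and blood cells. Bronchial glands are small exocrine glands of mucous and serous cells that secrete onto the airway surface through a duct. Salivary and lacrimal glands share this plan of secretory units and ducts. Every well of the card carries the assay for a particular RNA. Cp is the PCR cycle at which its fluorescence crosses a threshold, so a lower Cp means more template. Wells without amplification are listed at 50, and a Cp of at most 35 counted as detected, the limit of the methods. The files number the 384 wells, and the array definition that pairs them with miRNAs was not used here. Values are therefore given by card position, no miRNA sequence is shown, and neither tissue label was checked against marker miRNAs. Since each tissue has 1 library, no difference below has a replicate error and no test was made. In whole tissue, fewer cells of a type and less RNA per cell cannot be told apart.

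The only repeated measurement was positions 11, 12, 35, and 36, which gave nearly the same Cp within a library. Their mean was 16.5 ± 0.160 (SD, n = 4 wells) in lung and 16.4 ± 0.0956 (SD, n = 4 wells) in bronchial gland. It was 19.1 ± 0.482 in salivary gland and 19.3 ± 0.841 in lacrimal gland. These wells give the precision for an abundant RNA alone, and they were left out of the comparisons by position. The highest Cp of an amplified well was 42.0 in lung, 44.7 in bronchial gland, 44.9 in salivary gland, and 44.8 in lacrimal gland. Late values were thus recorded further in the 3 gland libraries than in lung.

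Lung and bronchial gland expressed nearly the same number of the 380 remaining positions, and mostly the same ones. Lung had 249 detected positions and bronchial gland 248, of which 224 were shared. A further 25 positions (6.58%) were detected in lung only and 24 (6.32%) in bronchial gland only, and 107 were detected in neither. Over the shared positions Spearman's rho of Cp was 0.808 and Pearson's r was 0.803. These positions share their libraries and are not independent replicates. The median Cp over the shared positions was 27.5 in lung and 25.3 in bronchial gland, 2.23 cycles earlier in the preamplified library. The repeated positions differed by only 0.0372 cycles between the same libraries. To compare positions, each library was scaled by subtracting its median over the shared positions.

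**Figure D1:**
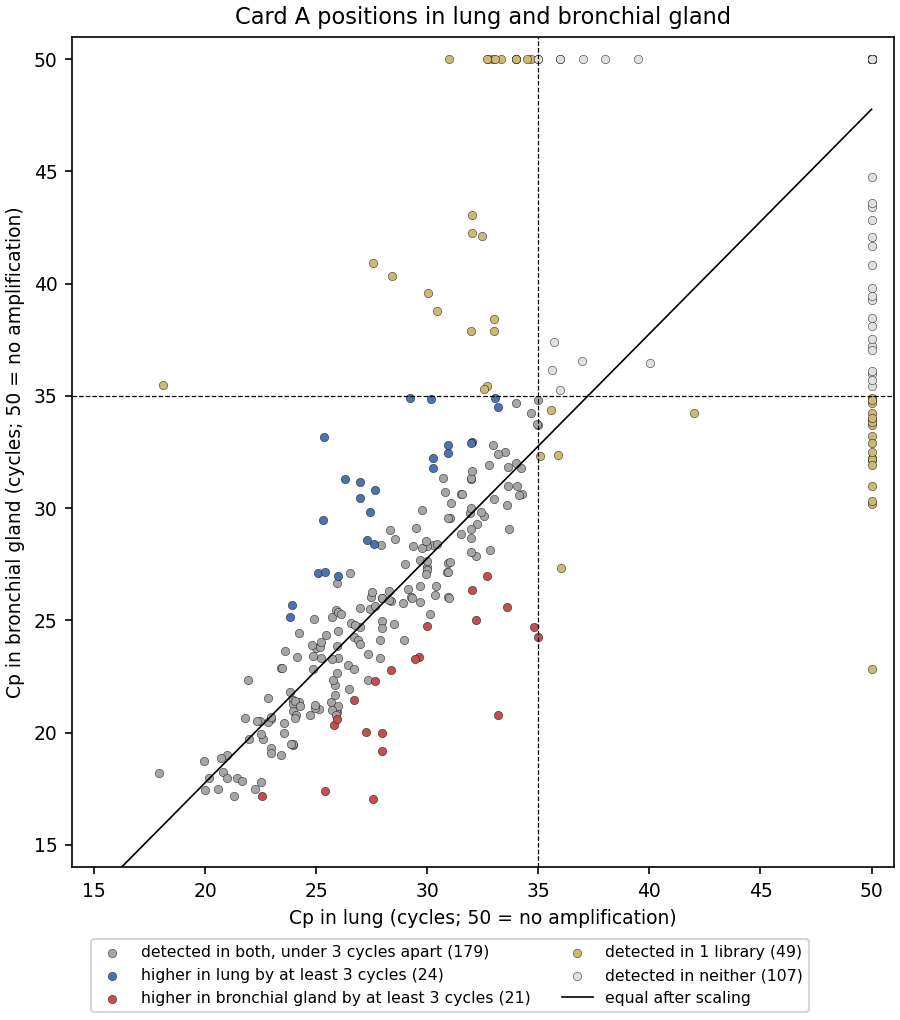
Cp of 380 card A positions in lung (x axis, cycles) and bronchial gland (y axis, cycles). Each point is a position, dashed lines mark the detection limit of 35, and the solid line marks equal values after scaling. Most of the 224 shared positions follow the line, 24 lie at least 3 cycles above it (higher in lung) and 21 at least 3 cycles below it (higher in bronchial gland), and 1 position stands alone at the upper left with a Cp of 18.1 in lung.

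After scaling, positions differed between lung and bronchial gland by a median of 1.44 cycles in either direction (SD of the difference 2.72 cycles). At 80 positions the difference was under 1 cycle. Expression was higher in lung by at least 3 cycles at 24 positions (10.7% of 224) and higher in bronchial gland at 21 (9.38%). The largest differences reached 10.1 cycles toward lung and 10.2 cycles toward bronchial gland. At the limit of 3 cycles, position 298 was just inside for lung at 3.06 and position 252 just outside at 2.94. For bronchial gland, position 63 was just inside at -3.01 and position 367 just outside at -2.89. The balance of the directions depends on the scale. When the libraries were scaled to the mean of these repeated wells instead, 8 positions were higher in lung and 85 in bronchial gland, so that the share of differing positions higher in lung fell from 53.3% to 8.60%. A difference of 3 cycles is far above the well-to-well spread of the repeated positions, which was 0.186 cycles for the difference of 2 wells, but that spread covers neither late Cp values nor separate animals.

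The largest difference from lung toward bronchial gland was at position 382. Its Cp was 33.2 in lung, 20.8 in bronchial gland, 33.6 in salivary gland, and 23.8 in lacrimal gland, a scaled difference of -10.2 cycles between bronchial gland and lung. Position 382 was thus early in bronchial and lacrimal gland and late in lung and salivary gland. Position 72 had a Cp of 34.97 in lung, 24.24 in bronchial gland, 28.04 in salivary gland, and 27.98 in lacrimal gland (scaled difference -8.50). Position 314 had a Cp of 27.5 in lung, 17.1 in bronchial gland, and 23.3 in both other glands (-8.26). At both of these positions all 3 glands lay on the same side of lung. Position 314 was abundant in the bronchial gland, since its Cp came within 1 cycle of the repeated positions. Position 156 had a Cp of 34.8 in lung, 24.7 in bronchial gland, 31.99 in salivary gland, and 27.9 in lacrimal gland (-7.83). In the preamplified proximal tubule and glomerulus its Cp was 19.0 and 19.1, but 37.0, that is undetected, in whole kidney. The preamplified intestinal villus and mammary gland had a Cp of 33.6 and 41.7. The part of preamplification at position 156 was not tested. Position 121 had a Cp of 27.98 in lung, 19.2 in bronchial gland, 26.7 in salivary gland, and 25.2 in lacrimal gland (-6.59). Its Cp was also 19.2 in mammary gland, the other microdissected gland, and 23.8 in intestinal villus.

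Of the next positions, 374 differed from the others in the lacrimal gland. Its Cp was 25.4 in lung, 17.4 in bronchial gland, and 25.8 in salivary gland, and 38.2, that is undetected, in lacrimal gland. It was detected in the other 16 libraries, as were the nearby positions 376 and 381, where lacrimal gland had a Cp of 39.8 and 41.3. Lacrimal gland was detected at 377 and 382 in the same stretch, with a Cp of 27.8 and 23.8. Whether wells of this stretch failed in the lacrimal library was not tested. Positions 368, 163, 88, and 174 completed the 10 largest differences toward bronchial gland, with scaled differences of -5.74, -5.73, -5.00, and -4.95. The other 11 positions of this direction lay between 3.01 and 4.04 cycles.

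Toward lung the largest difference among shared positions was at 263. Its Cp was 25.3 in lung, 33.2 in bronchial gland, 35.3 in salivary gland, and 34.1 in lacrimal gland, a scaled difference of 10.1 cycles. All 3 glands were late there, and salivary gland was past the detection limit. Position 82 had a Cp of 29.2 in lung and 34.9 in bronchial gland (7.93), no amplification in salivary gland, and a Cp of 26.8 in lacrimal gland. The lacrimal gland thus sided with lung at position 82, where bronchial gland was barely within the limit. Position 370 had a Cp of 26.3 in lung, 31.3 in bronchial gland, 38.1 in salivary gland, and 36.8 in lacrimal gland (7.21). Position 235 had a Cp of 27.0 in lung and 31.1 in bronchial gland (6.41) and did not amplify in salivary or lacrimal gland. Both positions were detected in bronchial gland and undetected in the other 2 glands. Positions 276, 225, 237, 196, 364, and 70 had scaled differences of 6.92, 6.42, 5.73, 5.38, 4.67, and 4.29. The other 14 positions of this direction lay between 3.06 and 4.24 cycles.

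**Figure D2:**
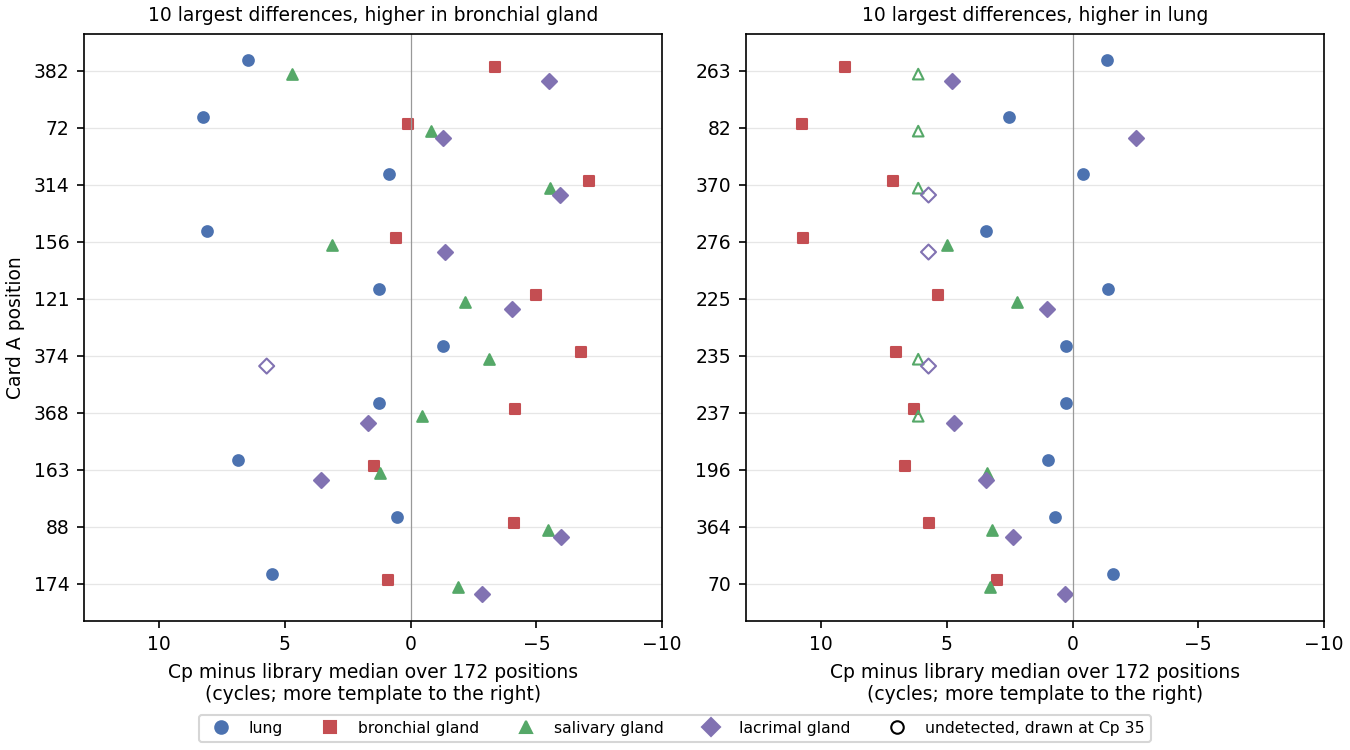
Scaled Cp (x axis, cycles below or above each library's median over the 172 positions detected in all 4 libraries, reversed so that more template lies to the right) at the 10 largest differences in each direction (y axis, card A position). Filled marks are detected wells and open marks are undetected wells drawn at Cp 35, which are bounds. At 7 of the 10 positions on the left all 3 glands lie at least 3 cycles above lung, and on the right salivary gland is undetected at 5 of 10.

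Among positions detected in a single library of the pair, 358 stood far from the rest. Its Cp was 18.1 in lung, 35.5 in bronchial gland, 43.2 in salivary gland, and 40.2 in lacrimal gland. It was among the most abundant positions in lung and past the detection limit in all 3 glands, at least 19.1 cycles lower in bronchial gland after scaling. It was detected in 6 of the 17 libraries, and the earliest Cp after lung was 30.9, in kidney. The next positions detected in lung only had a Cp in lung of 27.6 (334), 28.4 (277), 30.03 (228), and 30.4 (286). Over the 25 positions the median Cp in lung was 32.7, so that most lay near the limit. Bronchial gland amplified late at 13 of them, 3 of these with a Cp of at most 36, and did not amplify at 12. Of the 25, 5 were detected in salivary or lacrimal gland, as were 60.0% of all 380 positions.

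In the bronchial gland only, position 241 was the clearest. It did not amplify in lung, and its Cp was 22.8 in bronchial gland, 30.1 in salivary gland, 28.7 in lacrimal gland, and 24.4 in mammary gland. It was at least 9.92 cycles lower in lung. Other tissues had it too, with a Cp of 22.2 in glomerulus, 27.5 in bile duct, 30.4 in prostate, and 31.7 in pancreas, and after scaling glomerulus led bronchial gland by 5.59 cycles. It was detected in all 7 libraries with a highest Cp above 43 and in only 1 of the other 10, the glomerulus, and the part of this division in the result was not tested. Position 285 had a Cp of 36.01 in lung, 27.3 in bronchial gland, 41.5 in salivary gland, and 42.3 in lacrimal gland, and was detected in only 2 of the 17 libraries. Positions 65, 77, and 305 had a Cp of 30.2, 30.3, and 31.0 in bronchial gland and did not amplify in lung. Their bounds of 2.60, 2.44, and 1.78 cycles are small because a Cp of 35 in lung is only that far from these values after scaling. Over the 24 positions the median Cp in bronchial gland was 32.7. Lung did not amplify at 19 of them. Salivary or lacrimal gland had 11 of the 24 (45.8%), a lower share than the 60.0% of all positions. A limit of 35 stands for less starting template in a preamplified library, and this effect cannot be told apart from the tissue.

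Whether the bronchial gland was nearer to lung or to the other glands had no single answer. Over the 172 positions detected in all 4 libraries, its median absolute difference was 1.34 cycles from lung, 1.20 from salivary gland, and 1.22 from lacrimal gland. Lung was thus farther by 0.140 cycles than salivary gland and by 0.119 cycles than lacrimal gland, and no error of a library is known against which to set these gaps. Spearman's rho over the same positions was 0.784 with lung, 0.799 with salivary gland, and 0.749 with lacrimal gland, which places lacrimal gland last. By detected positions lung was nearest. Bronchial gland shared 0.821 of the positions detected in either library with lung, 0.791 with salivary gland, and 0.727 with lacrimal gland. Position by position, the nearest library was salivary gland at 62, lung at 58, and lacrimal gland at 52. Both glands were nearer than lung at 67 positions, and lung was nearer than both at 58.

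For comparison, lung differed from salivary gland by a median of 1.37 cycles and from lacrimal gland by 1.63 over the same positions, with rho of 0.696 and 0.610. Salivary and lacrimal gland differed by 0.965 cycles, with a rho of 0.763. Bronchial gland thus correlated more closely with lung and with salivary gland than these 2 did with each other. Of 14 ways to measure nearness, salivary gland was nearest in 11 and lung in 3, which were those without scaling, by shared detection, and with undetected wells set to 35 over all positions. The first and last of these 3 carry the overall Cp level of the libraries and do not measure likeness of profile alone. Median Cp over the 172 positions was 24.1 in bronchial gland, 26.7 in lung, 28.9 in salivary gland, and 29.3 in lacrimal gland. With undetected wells at 35, a position undetected in both libraries differs only by the offset of such medians. All 14 use the same single libraries and are not independent. Some margins were small, with Pearson's r of 0.7757 for salivary gland against 0.7749 for lung, and an SD of 2.49 against 2.51 cycles.

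Set against all other card A libraries, the nearest to bronchial gland was neither lung nor the salivary or lacrimal gland but the mammary gland. Each pair was scaled to its own shared positions here. Mammary gland had a median absolute difference of 1.10 cycles and a rho of 0.886 over 211 positions, and ranked first of 16 by both. Lung ranked second by rho (0.808), seventh by median difference (1.44 cycles), and first by shared detection. Salivary gland followed lung directly by rho (0.802) and ranked second by median difference (1.21 cycles). Lacrimal gland was eighth by rho (0.744). The lowest rho values were those of pancreas (0.390) and skeletal muscle (0.574). Mammary gland shares microdissection, 12 cycles of preamplification, and a highest Cp above 43 with bronchial gland, and these cannot be told apart from its being a gland. Among the 5 whole tissues with a highest Cp above 43, rho was 0.802 for salivary gland, 0.795 for prostate, 0.794 for bile duct, 0.744 for lacrimal gland, and 0.390 for pancreas. Among the 7 with a lower highest Cp, it was 0.808 for lung, 0.751 for kidney, 0.719 for small intestine, and 0.651 or less for heart, spleen, liver, and skeletal muscle. Lung was thus first among the whole tissues with the lower highest Cp, and salivary gland among those with the higher.

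**Figure D3:**
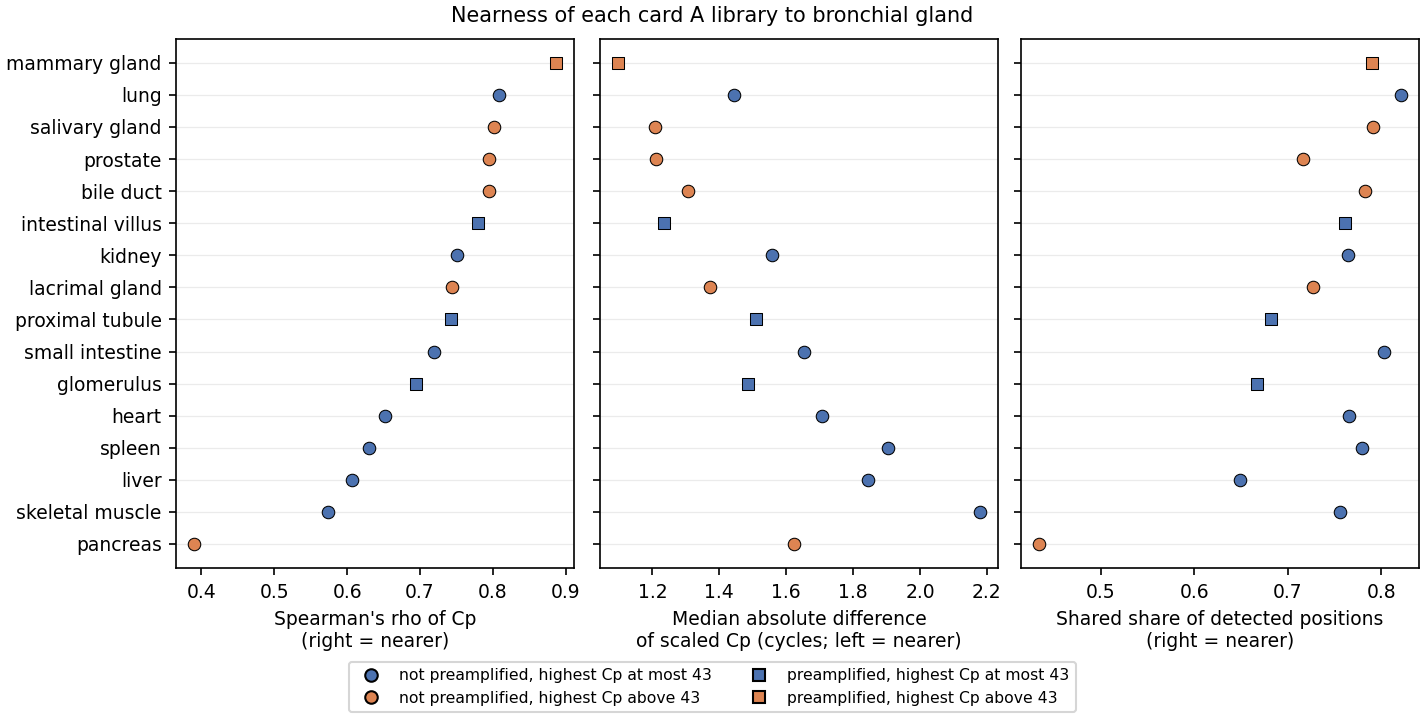
Nearness of 16 card A libraries (y axis) to bronchial gland by Spearman's rho of Cp over shared positions, by the median absolute difference of scaled Cp (cycles), and by the share of detected positions in common (fraction of 1). Squares are preamplified libraries and orange marks have a highest Cp above 43. Mammary gland is first by rho (0.886) and by median difference (1.10 cycles), and lung is first by shared detection (0.821).

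The 4 libraries were then searched, over 380 positions, for those that place the bronchial gland on one side by at least 3 cycles, with undetected wells set to 35. In 8 positions (2.11%) all 3 glands were above lung. These were 72, 241, 314, 156, 88, 174, 121, and 163, and the gap between lung and the nearest gland ran from 8.17 down to 3.31 cycles. Position 88 had a Cp of 27.3 in lung, 20.02 in bronchial gland, 23.4 in salivary gland, and 23.3 in lacrimal gland, and was detected in all 17 libraries. Position 174 had a Cp of 32.2 in lung, 25.02 in bronchial gland, 27.0 in salivary gland, and 26.4 in lacrimal gland. Lung was the latest of the 4 at both. Of these 8 positions, 7 were among the 10 largest differences toward bronchial gland. The choice by a difference from lung fixes that lung lies apart, so that only the place of the salivary and lacrimal glands is a further observation.

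In 11 positions (2.89%) lung was above all 3 glands. Position 358 had the largest gap between lung and the nearest gland, at least 14.3 cycles, followed by 263 (6.14), 370 (at least 6.12), 235 (at least 5.46), 334 (at least 4.86), 237, 384, 337, 277, and 270, and then 44 at 3.20. At 8 of the 11 positions a gland was undetected. At position 337 all 4 libraries had a detected value. Its Cp was 25.4 in lung, 27.2 in bronchial gland, 32.4 in salivary gland, and 32.4 in lacrimal gland. After scaling, lung ranked first of all 17 libraries, but by only 0.068 cycles over heart, less than the SD of 0.160 cycles of the repeated wells in lung. That SD was 0.061 cycles in heart, and both come from wells with an earlier Cp. At position 44, detected in all 17 libraries, the Cp was 23.8 in lung, 25.1 in bronchial gland, 29.2 in salivary gland, and 33.1 in lacrimal gland.

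Lung and bronchial gland stood together above both other glands in 6 positions (1.58%). At position 233 the Cp was 24.96 in lung, 21.2 in bronchial gland, and 36.9 in salivary gland, and lacrimal gland did not amplify. At position 375 it was 24.03 in lung, 20.6 in bronchial gland, 30.8 in salivary gland, and 36.05 in lacrimal gland. At both positions bronchial gland had the most and lung the next most template of all 17 libraries after scaling, ahead of the next library by 0.803 and 1.59 cycles. Position 45 had a Cp of 26.6 in lung and 24.9 in bronchial gland, a Cp of 39.0 in salivary gland, and no amplification in lacrimal gland, and was detected in 8 libraries. Positions 14, 8, and 224 completed the set. At every one of these 6 positions the lacrimal gland was undetected, so the gaps toward it are bounds.

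In 7 positions (1.84%) salivary and lacrimal gland were above both lung and bronchial gland. Position 377 had a Cp of 31.9 in lung, 32.9 in bronchial gland, 22.8 in salivary gland, and 27.8 in lacrimal gland. Position 125 had a Cp of 34.01 in lung, 34.7 in bronchial gland, 30.4 in salivary gland, and 28.2 in lacrimal gland. Both were late in lung and in bronchial gland. The others were 48, 146, 193, 77, and 130, of which 4 did not amplify in lung. Bronchial gland was detected at 48 and 77, with a Cp of 32.2 and 30.3. These values lay between those of salivary gland (31.7 and 31.3) and lacrimal gland (32.6 and 29.9). Its place with lung at 48 and 77 thus rests on the scaling. Position 146 was detected in the salivary and lacrimal glands and in no other library.

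Bronchial gland stood apart from all of lung, salivary gland, and lacrimal gland in 9 positions, and this number rests on the scale. It was above all 3 in 34 positions when scaled to the repeated positions and in 71 without scaling, and below all 3 in 0 under both. On the median scale it was above all 3 in 3 positions (0.789%), at 368, 25, and 374. Position 368 had a Cp of 27.9 in lung, 19.97 in bronchial gland, 28.4 in salivary gland, and 31.0 in lacrimal gland. Position 25 had a Cp of 29.6 in lung, 23.4 in bronchial gland, 31.9 in salivary gland, and 32.5 in lacrimal gland, and a Cp of 22.6 in mammary gland and 21.7 in intestinal villus. Bronchial gland was below all 3 in 6 positions (1.58%), at 105, 268, 377, 125, 196, and 225. Positions 377 and 125 thus met both this rule and the preceding one. All 6 were expressed at a moderate to low level, with a Cp of at least 29.5 in bronchial gland.

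The highest Cp of a library also divides these tissues, since it is above 43 in the 3 glands and below it in lung. The remaining 13 libraries of card A were therefore read at the same positions, 4 with a highest Cp above 43 and 9 with a lower one, with undetected wells at 35. Over all 380 positions the median scaled Cp of the 4 was earlier than that of the 9 at 32.4% and later at 67.6%. At positions undetected in every library, such as 119, 142, and 144, this order is fixed by the library medians. The sets require detection in their upper group, so the values over all positions are not a like baseline for them. At the positions with all 3 glands above lung, the median of the 4 was earlier at 7 of 8 (median gap 2.49 cycles). At those with lung above all 3 glands it was later at 11 of 11 (median gap -2.47 cycles, against -0.258 over all positions). Salivary and lacrimal gland were above lung and bronchial gland at 7 positions, and at 6 of these the 4 libraries were also earlier. The same 4 were earlier at 4 of the 6 positions with lung and bronchial gland above both other glands. They were earlier at 2 of 3 positions with bronchial gland above the rest and at 4 of 6 with it below the rest. None of these last divisions sets lung against all 3 glands, nor does that of salivary and lacrimal gland. The 4 libraries are pancreas, prostate, bile duct, and mammary gland, of which only bile duct is not a gland. A highest Cp above 43 thus went largely with gland tissue, and the part of either in these sets was not tested.

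**Figure D4:**
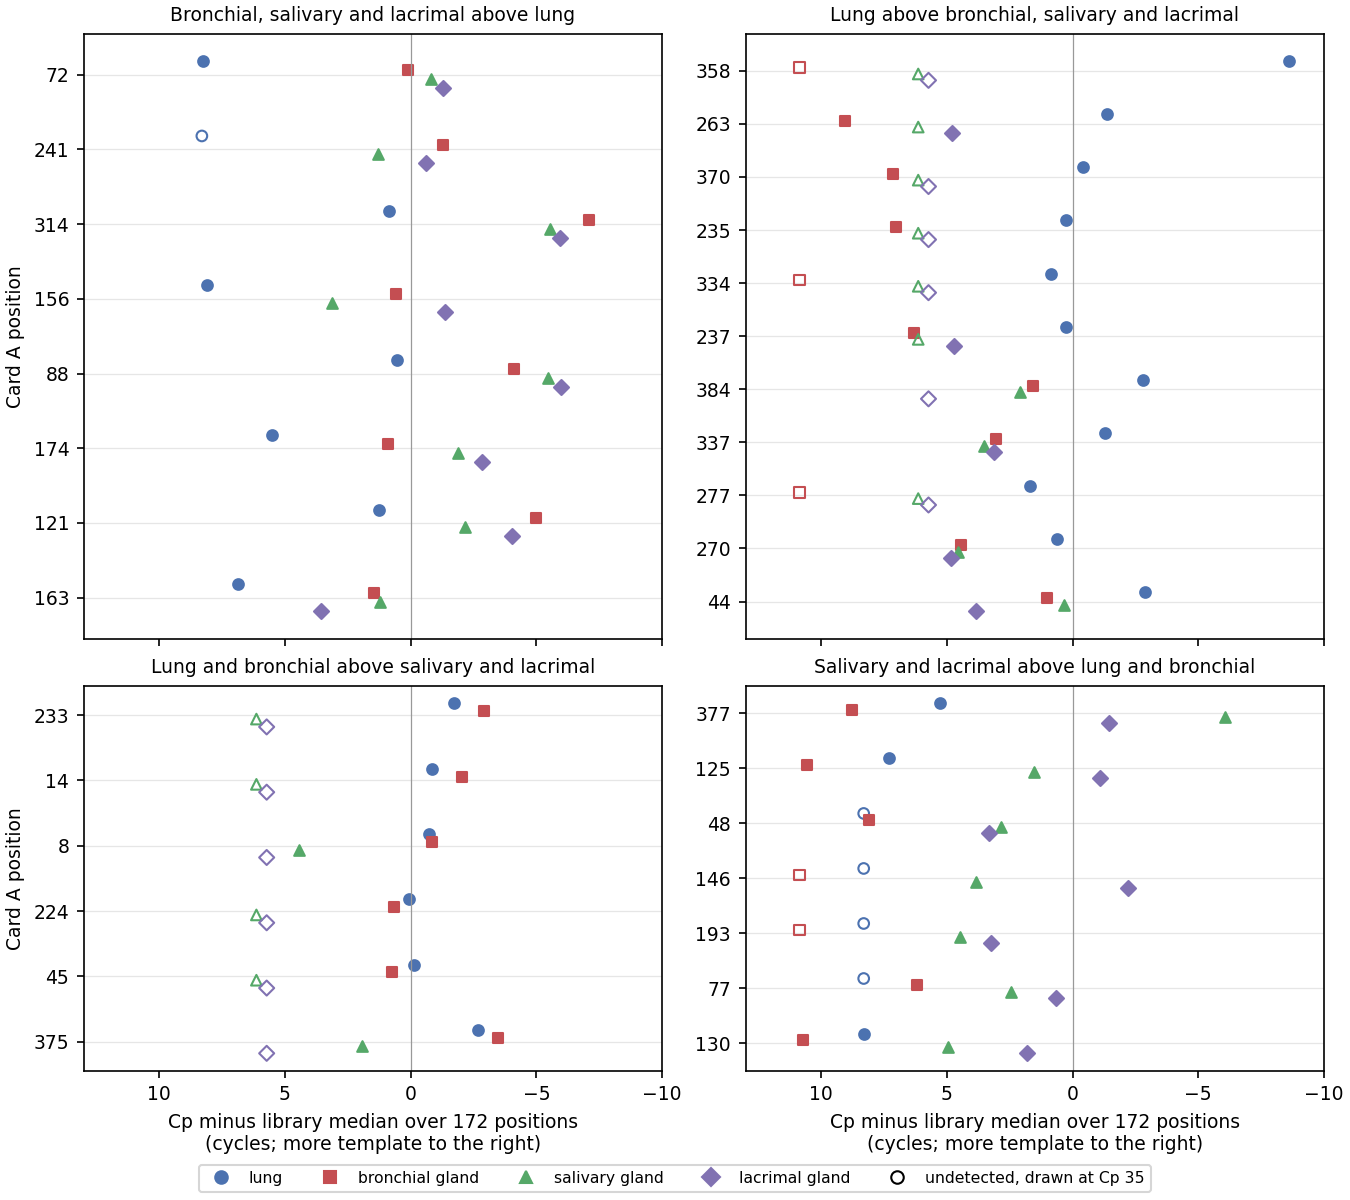
Scaled Cp (x axis, cycles, more template to the right) in lung, bronchial gland, salivary gland, and lacrimal gland at the positions (y axis) of 4 divisions of the libraries by at least 3 cycles. Open marks are undetected wells drawn at Cp 35. All 3 glands are above lung at 8 positions and below it at 11, and lung and bronchial gland are together above the other glands at 6 and below them at 7.

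Preamplification went with the tissue in this comparison, so the same difference was taken in other preamplified compartments of the series against their organs. None of these pairs shares a library with lung and bronchial gland. Between intestinal villus and small intestine, 13.8% of 196 shared positions differed by at least 3 cycles, against 20.1% of 224 between bronchial gland and lung. Between proximal tubule and kidney the share was 5.59% of 179, and between glomerulus and kidney it was 17.0% of 171. Bronchial gland and lung had the highest share of the 4 pairs. Across positions, the differences of bronchial gland from lung had a rho of 0.468 with those of villus from small intestine (n = 187 positions). The rho was 0.215 with those of proximal tubule from kidney (n = 169) and 0.0765 with those of glomerulus from kidney (n = 164). In proximal tubule 89.4% and in glomerulus 87.9% of the amplified Cp values lay close to a whole cycle. In the other card A libraries this share ran from 8.33% in pancreas to 31.1% in liver, with 14.3% in villus. The cause of this and its part in the rho values were not tested. Preamplification and dissection of an epithelium are both shared with the villus pair and cannot be told apart.

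By position, the villus pair also moved at some of the largest differences. Of the 21 positions higher in bronchial gland, 17 were measured in villus and small intestine, and 5 of these were higher in villus by at least 3 cycles, against 4.59% of all positions of that pair. Position 382 was among them at -3.41 cycles, and position 368 at -13.8 cycles. Positions 314 and 88 differed in the villus pair by only -0.193 and -0.458 cycles. Of the 24 positions higher in lung, 12 were measured in the villus pair, and 4 were higher in small intestine by at least 3 cycles, against 9.18%. Positions 82 and 70 were among them at 4.38 and 5.90 cycles. Of the bronchial gland set, 15 positions were measured in proximal tubule and kidney. By the same limit 3 were higher in proximal tubule, against 4.47% of all positions of that pair, and 1 was higher in kidney, against 1.12%. The latter was position 374, higher in kidney by 6.06 cycles. In glomerulus and kidney 13 were measured, and 4 were higher in kidney, against 11.7% of all, and 2 in glomerulus, against 5.26%. Of the lung set, 9 were measured in proximal tubule and kidney, with 0 higher in kidney and 1 in proximal tubule, and 11 in glomerulus and kidney, with 1 higher in kidney and 0 in glomerulus.

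The median Cp and the repeated positions did not move alike in these pairs. Between small intestine and villus, the median was 4.29 cycles and the repeated positions 1.84 cycles earlier in villus, against 2.23 and 0.0372 cycles between lung and bronchial gland. In glomerulus the median was 0.468 cycles earlier than in kidney, while its repeated positions differed the other way (-1.58 cycles). In proximal tubule both were later than in kidney (-0.292 and -0.589 cycles). Scaling to the repeated positions in place of the median therefore moves all positions toward the compartment by 2.20 cycles in bronchial gland, 2.45 in villus, 2.05 in glomerulus, and 0.297 in proximal tubule.

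**Figure D5:**
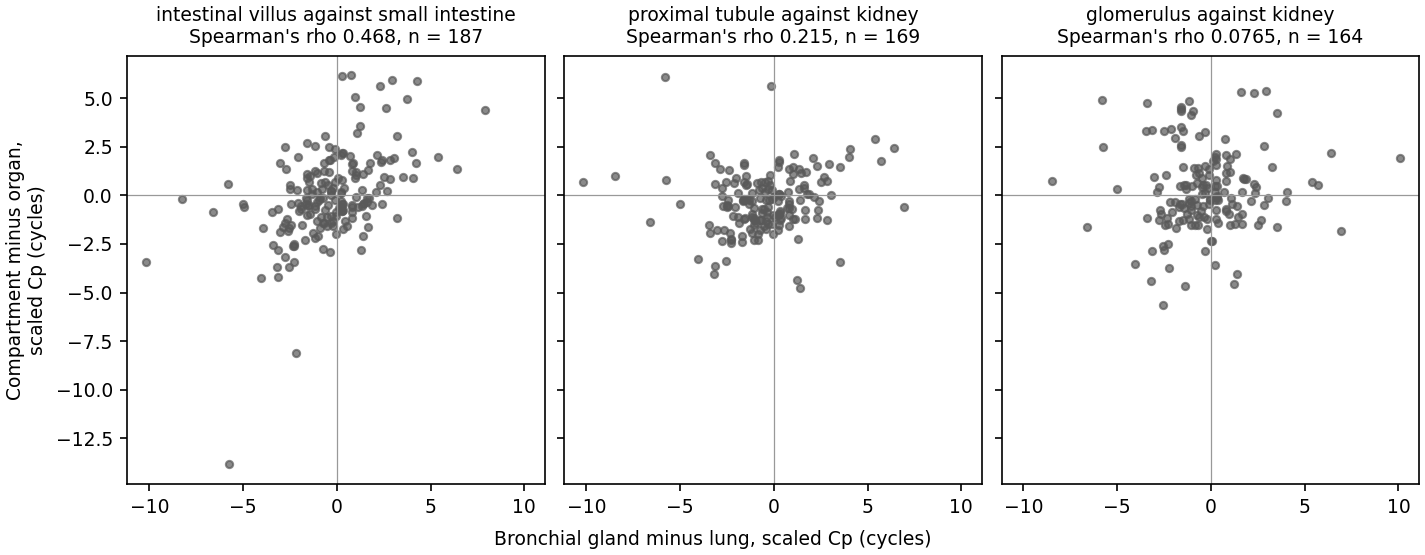
Difference of scaled Cp between compartment and organ (y axis, cycles) for intestinal villus, proximal tubule, and glomerulus against the difference between bronchial gland and lung (x axis, cycles). Each point is a card A position detected in all libraries of the panel, and negative values mean more template in the compartment. The villus panel slopes upward (rho 0.468), and the glomerulus panel shows little relation (rho 0.0765).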

How the data were processed

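Per the labels and the methods of the paper, TaqMan Rodent MicroRNA Array cards A and B were run on an ABI Prism sequence detection system, and Cp values in cycles were read with SDS and RQ Manager. The authors deposited these values without normalization to U6, and a well that did not amplify is listed at 50. Software versions were not given in the sources used here. Card A was analysed, and card B is described only in the closing observations. Wells with a Cp above 35 were called undetected, and positions 11, 12, 35, and 36 were left out. Each library was scaled to its median over the positions detected in all libraries compared, in place of U6. Named were the 10 largest differences in each direction, the 5 lowest Cp values among positions detected in a single library, and up to 10 positions per shared set; other positions were chosen after their values were seen. Members and rules were chosen with earlier results of these data known. Well precision is known from the 4 repeated positions alone. The lists of marker miRNAs were not used, since positions carry no names. The comparison of a pair of libraries was tested on simulated data with planted differences. The search over the 4 libraries was not tested in this way. Detection limits of 32 and 40, other scalings, other leads, and other measures of nearness were tried. Python 3.11.15, numpy 2.4.6, pandas 2.3.3, and matplotlib 3.10.9 were used.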

Additional observations from a re-analysis of the deposited data

Results flagged for a closer look

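Card B was outside the comparisons of the report. On it 222 of 380 positions were detected in lung and 145 in bronchial gland, a signal in data that the comparisons did not use.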

How the results depend on the processing

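No paired analysis was possible because lung and bronchial gland have only 1 library each. The direction of the 20 largest differences at shared positions did not turn with a limit of 40 or under the 4 other scalings, and it could not. Each setting shifts all positions by the same amount, at most 2.23 cycles, and the smallest of the 20 differences was 4.29 cycles. With a limit of 32 the direction was measured at 12 of them and with a Cp of at most 30 at 8, where it was fixed in the same way. The largest in each direction, 382 and 263, were measured at neither. The counts moved. Those at other leads follow from the construction of the limit; for the others the cause was not tested. Positions higher in lung and in bronchial gland numbered 40 and 44 at a lead of 2 cycles, 8 and 9 at 5 cycles, 14 and 8 with a Cp of at most 30 in both, 8 and 85 with the repeated positions as the scale, and 8 and 86 without scaling. They numbered 16 and 12 with a limit of 32, and 36 and 12 when scaled to the positions detected in all 17 libraries, a balance toward lung where the repeated positions give one toward bronchial gland. Positions detected in lung only fell to 16 with a limit of 32.

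The number of positions with all 3 glands above lung was 5 with a limit of 32, 18 with a limit of 40, 18 on the repeated positions, 18 at a lead of 2 cycles, and 3 at 5 cycles. With lung above all 3 glands it was 25 with a limit of 40, 7 on the repeated positions, 22 at 2 cycles, and 4 at 5 cycles. Lung and bronchial gland were above both other glands at 11 positions with a limit of 40, 11 at 2 cycles, and 52 without scaling. Both other glands were above them at 3 with a limit of 32, 17 with 40, 2 without scaling, 12 at 2 cycles, and 2 at 5 cycles. Bronchial gland alone was above the rest at 5 positions with a limit of 40, 34 on the repeated positions, 71 without scaling, 9 at 2 cycles, and 0 at 5 cycles. It was below the rest at 12 with a limit of 40, 0 on the repeated positions, 0 without scaling, 10 at 2 cycles, and 0 at 5 cycles.

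The median difference of bronchial gland from lung minus that from salivary gland (positive where the gland is nearer) was 0.263 cycles with a limit of 32, 0.528 on the repeated positions, 0.236 on the positions of each pair, 0.237 when scaled to the median of the differences (chosen after seeing the data), -1.97 without scaling, and -0.475 with undetected wells at 35 over all positions. Against lacrimal gland it was 0.0397 with a limit of 32, 0.0542 with 40, 0.0721 on the positions of each pair, 0.0157 with a Cp of at most 30 (chosen after seeing the data), -2.57 without scaling, -0.802 with undetected wells at 35, and -0.500 in ranks. The values without scaling and with undetected wells at 35 carry the overall Cp level of each library. Against lacrimal gland, lung was also nearer by SD (-0.204 cycles), Spearman's rho (-0.0345), Pearson's r (-0.0457), and shared detection (-0.0936), and against salivary gland by shared detection (-0.0292). The rho between the differences of bronchial gland and glomerulus was 0.198 with a limit of 32, chosen after seeing the data.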

Other observations

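On card B the libraries differed widely in their correlation with bronchial gland, with glands among both the higher and the lower values. Over the 86 card B positions detected in both bronchial and salivary gland, Spearman's rho of Cp was 0.691 and the median absolute difference of scaled Cp was 1.49 cycles. Over the 70 detected in both bronchial and lacrimal gland, rho was 0.702 and the median difference was 1.35 cycles. With proximal tubule the correlation was 0.713, higher than with either gland, and it was 0.682 with glomerulus, 0.677 with bile duct, and 0.574 with intestinal villus. With lung, rho was 0.149 over 86 positions, although lung was among the nearest libraries on card A, and with mammary gland, the nearest on card A, it was 0.0905 over 50 positions. Over the 10 libraries other than the 6 named first, lung and mammary gland included, rho ran from -0.0976 in skeletal muscle to 0.234 in pancreas. Bronchial gland detected 38.2% of all card B positions. It detected 86 of the 86 found in salivary gland, 70 of the 72 found in lacrimal gland, 103 of the 121 found in bile duct (85.1%), and 86 of the 222 found in lung (38.7%). Because of the low rho with lung, the rows of card B were not compared between lung and bronchial gland, and the cause was not tested.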
